A study of Mus musculus with 12 samples.

Results

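Transcripts of 10 genes for apolipoproteins and for the assembly of very low density lipoprotein (VLDL) were followed in mouse hepatocytes. The 10 were chosen by name from the 52636 genes of the deposited table: Apob, Mttp, Tm6sf2, Apoa1, Apoa2, Apoa4, Apoa5, Apoc2, Apoc3 and Apoe. RNA sequencing of polyA RNA was done on hepatocytes from steatotic livers of 6 mice, 3 wild type (WT) and 3 with a knockout (KO) of Ptprk, a receptor-type protein tyrosine phosphatase. A Percoll gradient and differential centrifugation separated the viable cells of each liver by lipid content into 2 fractions, called low-fat and high-fat, and 1 library was made from each fraction of a mouse. Genotype and fraction together define 4 groups of 3 libraries. The labels give neither strain, age and sex nor the way in which the livers became steatotic, and they do not say how or in which cells Ptprk was disrupted.

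Hepatocytes load triglyceride onto apolipoprotein B, the product of Apob, while it enters the endoplasmic reticulum. The transfer is carried out by microsomal triglyceride transfer protein, the product of Mttp, and Tm6sf2 encodes a membrane protein needed for full lipidation of the particle. The smaller apolipoproteins coat secreted particles: those of Apoa1 and Apoa2 are the main proteins of high density lipoprotein (HDL), Apoc2 encodes the cofactor of lipoprotein lipase, Apoc3 and Apoa5 encode an inhibitor and an activator of triglyceride removal, and Apoe encodes a ligand for receptors that take up remnants.

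Of the 10 genes, 4 lie in a cluster on chromosome 9: Apoa1 (46228580 to 46230466), Apoc3 (46232933 to 46235636), Apoa4 (46240696 to 46243459) and Apoa5 (46268633 to 46271919). Apoe (19696109 to 19699188) and Apoc2 (19671579 to 19677941) lie in a second cluster on chromosome 7. Apob is on chromosome 12 (7977648 to 8016835), Mttp on chromosome 3 (138089854 to 138144968), Tm6sf2 on chromosome 8 (70072924 to 70080066) and Apoa2 on chromosome 1 (171225054 to 171226379). These positions are from GENCODE M21 on GRCm38. Per the submitters' processing notes the authors used mm9, and the deposited table lists genes without coordinates.

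The 100 bases before the annotated start are shown for 5 of the clustered genes, because Apoa4 and Apoc2 differed between the fractions while their neighbours Apoa1 and Apoe did not pass the test. They are from RefSeq on GRCm38.p6, 5′ to 3′ on the strand of the gene, and capitals mark a match to a searched motif.
Apoa4, chr9:46240596-46240695, plus strand: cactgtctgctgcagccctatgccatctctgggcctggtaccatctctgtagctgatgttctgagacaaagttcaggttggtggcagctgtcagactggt
Apoa1, chr9:46228480-46228579, plus strand: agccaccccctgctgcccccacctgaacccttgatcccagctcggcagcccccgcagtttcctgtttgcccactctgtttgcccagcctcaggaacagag
Apoa5, chr9:46268533-46268632, plus strand: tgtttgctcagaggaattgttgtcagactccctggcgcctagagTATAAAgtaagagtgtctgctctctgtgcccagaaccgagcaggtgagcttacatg
Apoc2, chr7:19677942-19678041, minus strand: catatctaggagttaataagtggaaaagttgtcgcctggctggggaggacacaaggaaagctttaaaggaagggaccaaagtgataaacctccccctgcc
Apoe, chr7:19699189-19699288, minus strand: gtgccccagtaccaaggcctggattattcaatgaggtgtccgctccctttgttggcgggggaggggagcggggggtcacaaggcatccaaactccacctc
The bases before Apoa4 also lie in an exon of the overlapping gene model Gm47528, and the RefSeq starts of Apoa4 and Apoa1 are 148 and 50 bases further downstream. RefSeq windows covering these 100 bases were found for 7 of the 10 genes and not for Mttp, Tm6sf2 and Apoc3. Both strands were searched for TATAAA, the core of a TATA box, for AGGTCA, a nuclear receptor half-site, for CAAAGTCCA, a site of the HNF4A type, and for TGTTTAC, a forkhead factor site. Distances are from the GENCODE starts. TATAAA was found 56 bases before the start of Apoa5 and 31 bases before that of Apob. From the RefSeq starts, 25 bases upstream in Apoa5 and 29 bases downstream in Apob, these distances are 31 and 60. TGTTTAC was found 77 bases before the start of Apoa2, where both annotations have the same start. Among 32851 windows of the same length, TATAAA was present in 5.56%, AGGTCA in 5.88%, CAAAGTCCA in 0.17% and TGTTTAC in 1.12%. The windows of Apoa4, Apoa1, Apoc2 and Apoe held none of these letters, and no match overlapped another.

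Levels are given as deposited, in reads per 20 M reads of a library (M, the SI prefix mega). The depth estimated from the values was 15.1 to 25.0 M reads, at which 3 reads correspond to 2.4 to 3.98 reads per 20 M, and the lowest level of any of the 10 genes was 389. Ptprk was 2788 ± 83.7 (SD, n = 3) in WT and 1271 ± 135 in KO low-fat cells, and in high-fat cells 2407 ± 209 in WT and 1200 ± 19.3 in KO, so that its transcripts were reduced and not absent in the KO. All 6 hepatocyte markers examined were abundant, and their summed level was 425687 to 497048 in the 12 libraries. Markers of macrophages, stellate cells and sinusoidal endothelial cells were also read in all 12 libraries, and the sum of each list was higher in high-fat than in low-fat cells of each mouse. In such bulk RNA, fewer cells of a type and less RNA per cell cannot be told apart.

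Together the 10 genes took 1.99% to 2.91% of the reads of a library. Apob alone took 0.859% to 1.63% and ranked between the 1st and the 4th of all genes by reads. Divided by the length of the principal transcript, the order was led by Apoe with 70400 ± 6920 reads per 20 M per kb (SD over the 12 libraries), followed by Apoa1 with 44300 ± 3180 and Apoa2 with 44000 ± 4300. Apoc3 followed with 27100 ± 2550, Apob with 17600 ± 3920 and Apoa5 with 12000 ± 2260. Apoa4 stood at 10300 ± 2870, Apoc2 at 7500 ± 982, Mttp at 2320 ± 147 and Tm6sf2 at 487 ± 120.

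Within every library Apoe held place 1, Apoc3 place 4, Mttp place 9 and Tm6sf2 place 10 per length. The neighbours Apoa1 and Apoa2 changed places between libraries and differed by less than their SD. Apob held place 5 or 6, Apoa5 place 6 or 7, Apoa4 any place from 5 to 8 and Apoc2 place 7 or 8. Dividing by the length of all exons instead put Apoa2 above Apoa1 and Apob above Apoc3. The levels of the genes that overlap another gene model, described further down, are less certain than the rest.

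**Figure D1:**
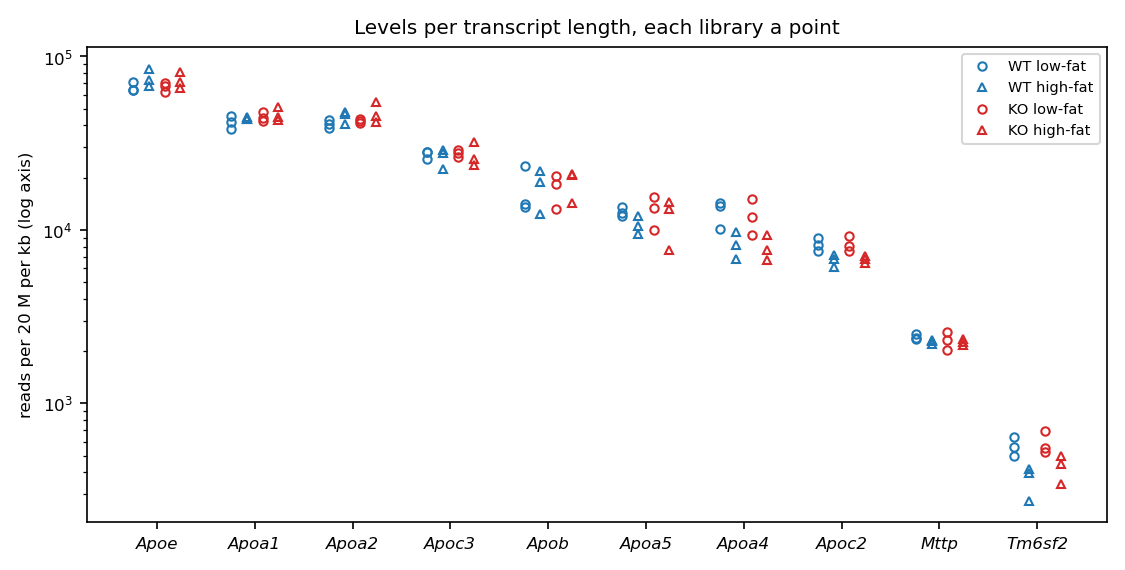
Level of each gene in reads per 20 M per kb of principal transcript (log axis); each point is 1 library, circles are low-fat, triangles high-fat, blue WT and red KO. Apoe lies highest at a mean of 70400 and Tm6sf2 lowest at 487.

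The comparison of the fractions asks how hepatocytes of 1 liver that differ in lipid content differ in these transcripts. Tm6sf2, Apoa4 and Apoc2 were lower in the high-fat fraction when both genotypes were averaged, with levels of 0.644, 0.622 and 0.771 times the low-fat level. None of the 10 genes was called higher, where 4.97% of all genes were. The 3 called genes compare with 951 genes called among the 16563 tested (5.74%), of which 127 (0.767%) were lower. Calls were made at 0.05 on the Benjamini-Hochberg adjusted p of limma, a linear model fitted to the log2 values of all genes tested, and the log2 differences below are from this fit. With the mouse as a block the same 3 of the 10 were called, against 10.4% of all genes in either direction, 3.68% lower and 6.76% higher. The 10 genes were chosen with earlier results of these data known, so these shares are no test of the set.

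These 3 calls rest on small groups. Without the block, leaving out a single library (WT low-fat replicate 3, WT high-fat replicate 1, KO low-fat replicate 1 or 3, or KO high-fat replicate 1 or 2) left 0 of the 3 called, with limma adjusted p between 0.051 and 0.12. Without WT low-fat replicate 1 or WT high-fat replicate 2 only Tm6sf2 was called, and without WT low-fat replicate 2 Tm6sf2 alone was lost (0.067). With the block and 1 mouse left out, Tm6sf2 was called in each of 6 fits (limma adjusted p 0.0011 to 0.028) and Apoa4 in 5, the exception being the fit without WT replicate 1 (0.052). Apoc2 was called in 2 of the 6 fits, without KO replicate 1 (0.014) and without KO replicate 2 (0.02), and the other 4 gave 0.065 to 0.14. All these differences were negative.

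Tm6sf2 read 702, 913 and 797 in WT low-fat replicates 1 to 3 and 389, 597 and 560 in the WT high-fat libraries of the same mice. The KO low-fat libraries held 740, 782 and 982, and the KO high-fat libraries 485, 636 and 709. The high-fat library was the lower one in all 6 mice, and the fractions did not overlap in either genotype. The log2 difference was -0.64 ± 0.15 (SE; limma adjusted p = 0.028, and 0.0041 with the block).

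Tm6sf2 was also the only one of the 10 called within a genotype, and only with the block: its difference in WT was -0.75 ± 0.12 (limma adjusted p = 0.045, against 0.18 without the block). There, 195 genes (1.18%) were called with the block, against 0 genes (0.0%) without it, where 2014 genes had an unadjusted p under 0.05. In KO its difference was -0.52, with an adjusted p of 0.44 without and 0.067 with the block in limma. In KO, 173 genes (1.04%) were called without and 379 (2.29%) with the block, and 0 of the 10 in either fit.

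The other assembly genes were not called in any of these comparisons. Apob read 188412, 195751 and 326215 in WT low-fat replicates 1 to 3 and 171925, 263292 and 302924 in WT high-fat. In KO it read 183114, 255752 and 284297 in the low-fat and 198993, 291953 and 287344 in the high-fat libraries. After scaling, 3 mice had the lower Apob value in high-fat cells and 3 the higher one, with a log2 difference of 0.01 and a 95% interval of -0.53 to 0.54. Apob differed more between mice than between fractions: the mean log2 levels of the mice spanned 0.87, from WT replicate 1 to WT replicate 3.

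Mttp was the steadiest of the 10 between mice after Apoe, with mouse means spanning 0.22 on the log2 scale. It read 9975, 9483 and 9330 in WT low-fat and 8667, 9252 and 9104 in WT high-fat libraries, without overlap. In KO the low-fat libraries read 10206, 8067 and 9184 and the high-fat libraries 8962, 8571 and 9303, which overlap. The log2 difference over both genotypes was -0.14, with an interval of -0.33 to 0.05, and it was -0.08 without KO low-fat replicate 1. The ratio of Tm6sf2 to Mttp reads within a library was lower in high-fat than in low-fat cells in all 6 mice, with log2 differences of -0.65, -0.58 and -0.47 in WT and -0.42, -0.39 and -0.49 in KO replicates 1 to 3. The lower Tm6sf2 level was thus seen relative to Mttp as well as to all reads. Since Tm6sf2 alone was already lower in all 6 mice, the ratio is no separate test. The ratio of Mttp to Apob was lower in 4 of the 6 mice.

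**Figure D2:**
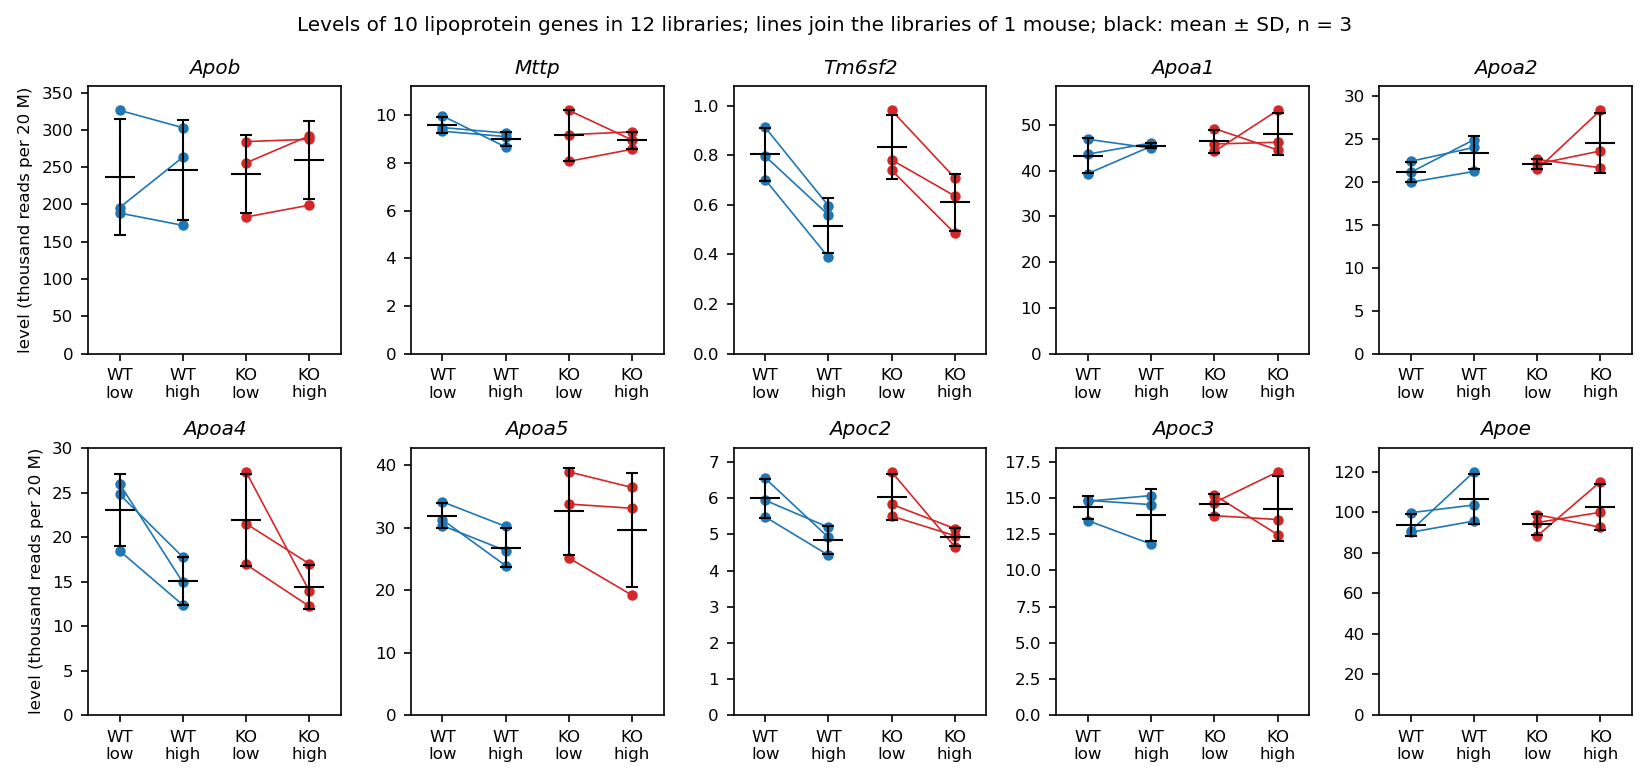
Level of each of the 10 genes in kilo-reads per 20 M in the 4 groups; each point is 1 library, lines join the libraries of 1 mouse, and black bars show the mean ± SD (n = 3). Tm6sf2, Apoa4, Apoa5 and Apoc2 had the lower value in high-fat cells in all 6 mice.

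In the chromosome 9 cluster, Apoa4 had the largest of the 10 differences when both genotypes were averaged (-0.69, beside -0.64 for Tm6sf2), while in WT alone that of Tm6sf2 was larger (-0.75, beside -0.71 for Apoa4). Its protein is made in liver and intestine and is carried on chylomicrons, VLDL and HDL. Apoa4 read 25992, 18466 and 24809 in WT low-fat replicates 1 to 3 and 14921, 12377 and 17765 in the paired high-fat libraries. In KO it read 27345, 16932 and 21517 in the low-fat and 13952, 12228 and 17006 in the high-fat libraries. The high-fat library was the lower one in all 6 mice. The WT fractions did not overlap, and in KO the highest high-fat value lay just above the lowest low-fat value. The log2 difference was -0.69 ± 0.17 (SE; limma adjusted p = 0.037, and 0.01 with the block).

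Apoa5 also had its lower value in the high-fat cells of all 6 mice, but was not called. It read 31298, 30359 and 34170 in WT low-fat and 23943, 26342 and 30231 in WT high-fat libraries. In KO it read 25166, 38979 and 33813 in the low-fat and 19201, 36466 and 33136 in the high-fat libraries, so that the KO mice differed more than their fractions. Its log2 difference was -0.29 ± 0.18 (SE; limma adjusted p = 0.41, and 0.11 with the block). With 1 library left out the difference of Apoa5 lay between -0.39 and -0.11, the latter without KO high-fat replicate 1. Over all genes tested, 11.7% had the lower value after scaling in high-fat cells in all 6 mice and 9.73% the higher one. Of the 10 genes, Tm6sf2, Apoa4, Apoa5 and Apoc2 were lower in all 6 and none was higher in all 6.

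The 2 remaining genes of the cluster, Apoa1 and Apoc3, were not called. Apoa1 ranged from 39391 to 53228 over the 12 libraries, with a log2 difference of -0.02 (95% interval -0.26 to 0.22). Apoc3 ranged from 11815 to 16820, with a difference of -0.13 (-0.38 to 0.13), or between -0.21 (without KO high-fat replicate 3) and -0.05 (without KO high-fat replicate 1) with 1 library left out. Within a library the ratio of Apoa4 to Apoa1 was 0.469 to 0.568 in WT low-fat and 0.273 to 0.386 in WT high-fat, and 0.369 to 0.555 in KO low-fat and 0.264 to 0.319 in KO high-fat libraries. It was lower in the high-fat cells of every mouse, as were the ratios of Apoa5 and of Apoc3 to Apoa1. The ratio of Apoc3 to Apoa1 changed little, by log2 differences of -0.04 to -0.17. Apoa4 and Apoa5 alone were already lower in every mouse, so their ratios are no separate test. The estimates of neighbouring genes of this cluster were thus unequal, and whether their differences differed was not tested.

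Reads of Apoa4 and Apoa5 cannot be fully told apart from those of overlapping gene models, since the sources used here do not say whether strand was used in counting. Gm10680, on the strand opposite to Apoa4, held 56.6% to 59.5% of the Apoa4 level in every library, and Gm47528, also opposite, 22.5% to 25.2%. Both were called lower in the high-fat fraction, by -0.70 and -0.72 on the log2 scale (limma adjusted p = 0.032 and 0.025). Gm47544, opposite to Apoa5, held 45.0% to 47.5% of the Apoa5 level, with a log2 difference of -0.32 that was not called (limma adjusted p = 0.36). Gm43691, opposite to Mttp, held 10.9% to 12.4% of the Mttp level.

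In the chromosome 7 cluster Apoc2 was called lower in high-fat cells and Apoe was not called. Apoc2 read 6556, 5487 and 5947 in WT low-fat replicates 1 to 3 and 4919, 4426 and 5200 in WT high-fat, and 6735, 5508 and 5837 in KO low-fat and 4662, 4966 and 5162 in KO high-fat libraries. Every mouse had the lower value in its high-fat library, and the fractions did not overlap in either genotype. The log2 difference was -0.38 ± 0.10 (SE; limma adjusted p = 0.047, and 0.034 with the block), and without the filter on low values the adjusted p was 0.068. Gm44805, a gene model on the same strand that overlaps Apoc2, held 151% to 182% of the Apoc2 level and was not called (log2 difference -0.23, limma adjusted p = 0.25), so reads of these 2 cannot be told apart either.

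Apoe read 90036, 90813 and 99689 in WT low-fat and 95592, 119847 and 103513 in WT high-fat libraries. In KO it read 98724, 94846 and 88212 in the low-fat and 92535, 99889 and 114950 in the high-fat libraries. The groups overlapped in both genotypes, and the log2 difference was 0.07 (95% interval -0.22 to 0.36). The ratio of Apoc2 to its neighbour Apoc4, another small apolipoprotein of the cluster, was lower in the high-fat cells of every mouse, with log2 differences of -0.41, -0.36 and -0.32 in WT and -0.42, -0.40 and -0.42 in KO replicates 1 to 3. Apoc2 against Apoe was lower in all 6 mice too, by log2 differences of -0.22 to -0.71. Since Apoc2 alone was already lower in every mouse, these ratios are no separate test. The ratio of Apoc4 to Apoe was lower in 4 of the 6 mice. Apoa2, the second main HDL protein, on another chromosome, ranged from 19968 to 28342 and gave a log2 difference of 0.07 (-0.17 to 0.30).

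**Figure D3:**
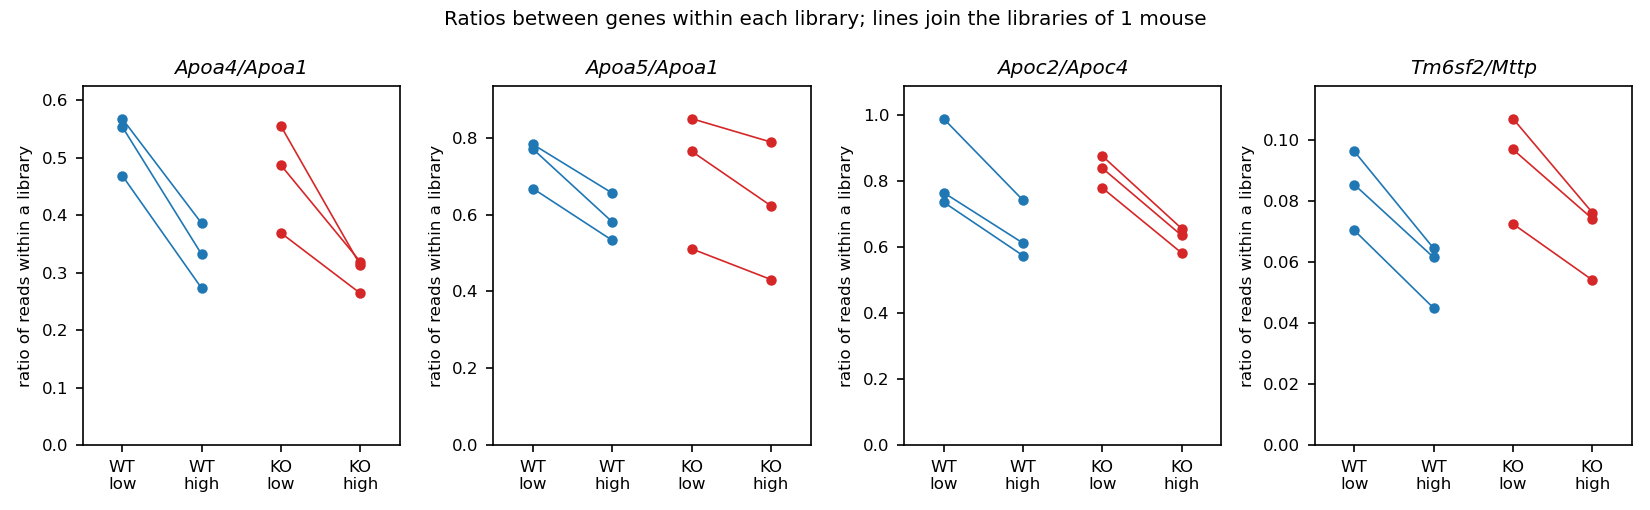
Ratio of reads of a pair of genes within each library for Apoa4 to Apoa1, Apoa5 to Apoa1, Apoc2 to Apoc4 and Tm6sf2 to Mttp; lines join the libraries of 1 mouse, blue WT and red KO. All 4 ratios were lower in the high-fat library of each of the 6 mice, as was the first gene of each ratio on its own.

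Genes whose 3 low-fat and 3 high-fat libraries did not overlap after scaling were counted. In WT 4 of the 10 were lower (Tm6sf2, Apoa4, Apoc2 and Mttp), against 9.32% of all genes tested. In KO it was 2 of the 10 (Tm6sf2 and Apoc2), against 5.66%. As deposited, the WT values of Apoa5 did not overlap either (lowest low-fat 30359, highest high-fat 30231), but after scaling they did. None of the 10 was higher without overlap, against 8.93% of all genes in WT and 7.74% in KO. The median log2 difference over the 10 genes was -0.13 and that over all genes tested -0.05. Of the 10, 7 were below 0, against 59.2% of all genes. Among lists described further down, the median was -0.16 for 6 hepatocyte markers and -0.13 for 8 other liver apolipoprotein genes. It was -0.13 for 21 genes of VLDL secretion and lipidation and 0.57 for 6 of HDL formation and remodelling. The median of the 10 was thus not particular to them.

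The comparison of genotypes asks whether loss of Ptprk altered these transcripts in either fraction. None of the 10 genes was called, with or without replicate number as a block. In the low-fat fraction 1 gene of all those tested was called (0.00604%), Ptprk itself, and 271 genes had an unadjusted p under 0.05. In the high-fat fraction it was again 1 gene (0.00604%), with 324 at an unadjusted p under 0.05, and 2 genes (0.0121%) with replicate number as a block. None of the 10 had an unadjusted limma p under 0.05. In none did the KO and WT libraries of a fraction separate without overlap after scaling. Over all genes this share was 5.42% in low-fat cells and 4.95% in high-fat cells.

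The log2 differences between KO and WT lay between -0.08 (Apoa4) and 0.11 (Apoa1) in low-fat cells and between -0.03 (Apoa4) and 0.28 (Tm6sf2) in high-fat cells. Leaving out 1 library moved that of Apoa1 in low-fat cells to as little as 0.004 (without WT low-fat replicate 2), and that of Tm6sf2 in high-fat cells to 0.05 (without WT high-fat replicate 1) and 0.458 (without KO high-fat replicate 1). The 95% intervals say what sizes these data cannot tell from 0. For Apob the interval was -0.70 to 0.81 for low-fat and -0.63 to 0.88 for high-fat cells, the widest of the 10. For Mttp it was -0.34 to 0.20 and -0.25 to 0.29, the narrowest. Tm6sf2 in high-fat cells, 515 ± 111 in WT and 610 ± 114 in KO (SD, n = 3), had an interval of -0.18 to 0.75. Effects of the knockout within these intervals, and not only small ones, could therefore not be told from 0 with 3 mice a genotype.

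Whether the fraction difference itself depended on the genotype was tested as an interaction, and none of the 10 genes was called (0.0% of all genes, 24 of which had an unadjusted p under 0.05 in limma). Tm6sf2 had the largest interaction of the 10, 0.22, with an interval of -0.43 to 0.88. For Apoa4 it was 0.05 (-0.70 to 0.80) and for Apoc2 0.05 (-0.38 to 0.48). The fall of Tm6sf2, Apoa4 and Apoc2 was seen in mice of both genotypes, and the intervals leave room for sizeable differences between them.

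**Figure D4:**
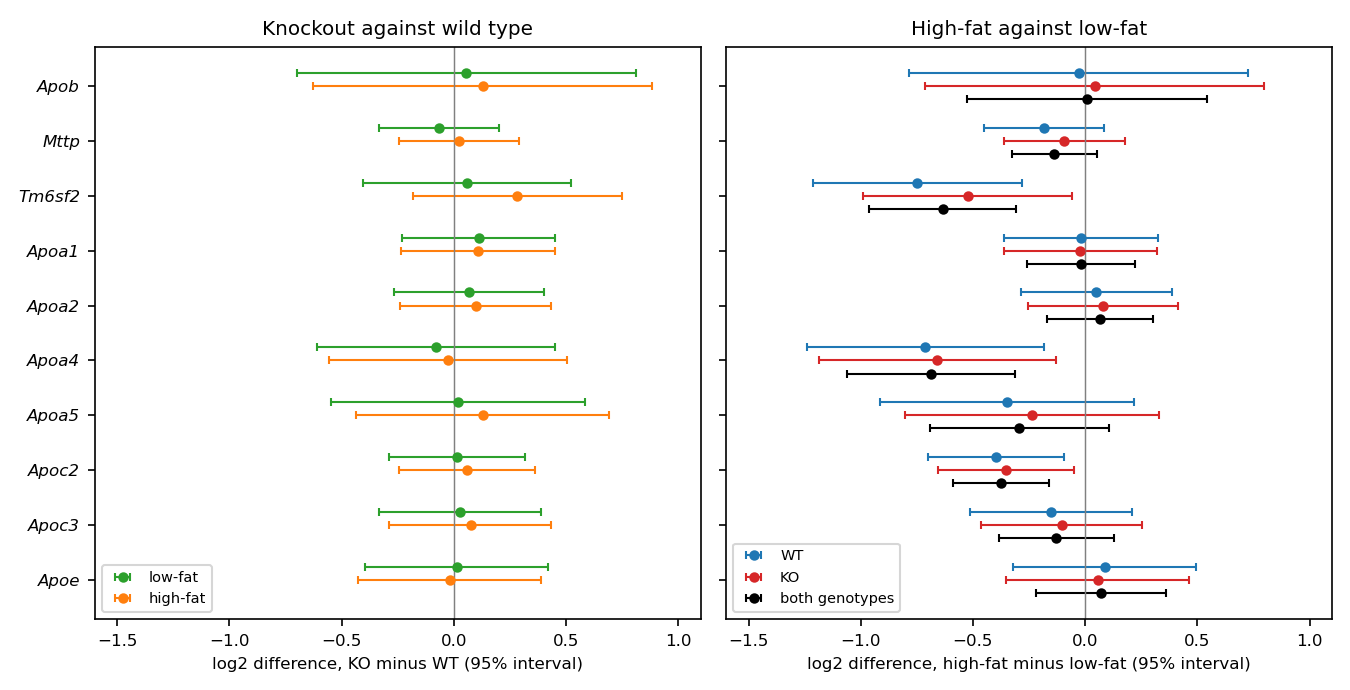
Log2 difference of each gene with its 95% interval: left, KO minus WT in the low-fat (green) and high-fat (orange) fraction; right, high-fat minus low-fat in WT (blue), KO (red) and both genotypes averaged (black). All KO minus WT intervals include 0, and the averaged fraction intervals of Tm6sf2, Apoa4 and Apoc2 lie below 0.

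Other genes of lipoprotein metabolism were read in lists of known function. Of 8 other liver apolipoprotein genes tested, 0 were called between the fractions (6 were below 0, median -0.13). With the block Apon was lower, at -0.32 (limma adjusted p = 0.04), and with 1 mouse left out this call held only without KO replicate 1 or 2. Of 21 tested genes for secretion and lipidation of VLDL, 0 were called without the block. With it, Sec23b (-0.24, adjusted p = 0.023) and Sec24d (-0.22, 0.048), which encode parts of the COPII coat that carries cargo out of the endoplasmic reticulum, were lower in limma. Sort1, the gene of the sorting receptor sortilin, was higher with the block (0.45, limma adjusted p = 0.022). Over all genes, 3.68% were called lower and 6.76% higher with the block. With 1 mouse left out, the call of Sec23b held in 2 of 6 fits (without KO replicate 1 or 2), that of Sec24d in 1 (without KO replicate 2) and that of Sort1 in 3 (those without a KO mouse). Leaving out 1 library without the block gave differences of -0.341 to -0.133 for Sec23b, -0.32 to -0.138 for Sec24d and 0.249 to 0.577 for Sort1.

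Among 14 genes of lipoprotein receptors and clearance, 2 were called lower and 1 higher. Over all genes tested, 0.767% were called lower and 4.97% higher. Lsr, a receptor for triglyceride-rich lipoproteins, was lower by -0.44 and Sdc1, a heparan sulfate proteoglycan that binds remnants, by -0.48 (limma adjusted p = 0.029 and 0.015). Gpihbp1, which holds lipoprotein lipase on capillary endothelium, was higher by 1.40 (limma adjusted p = 0.0087). With the block, Lpl, the gene of lipoprotein lipase, was also higher (1.40, limma adjusted p = 0.0028), also with each mouse left out. The calls of Gpihbp1 and Sdc1 were kept with each library left out, and that of Sdc1 was lost with the block without WT replicate 1 or 2. Lsr was called with 4 of the 12 libraries left out (WT low-fat replicates 2 and 3, KO low-fat replicate 2 and KO high-fat replicate 3), and with the block it was lost without WT replicate 1 or 2 or KO replicate 3. Of 6 genes of HDL formation and remodelling, 3 were higher: Abcg1, a cholesterol exporter, by 1.57, Pltp, the phospholipid transfer protein, by 1.08, and Pcolce2 by 1.95 (limma adjusted p = 0.024, 0.013 and 0.041). These 3 of 6 stand beside 4.97% of all genes called higher. The call of Pltp was kept with each library or mouse left out. That of Abcg1 was lost without WT low-fat replicate 1 or 2 or either high-fat replicate 1, and with the block without any 1 WT mouse. Without both replicate 1 mice the difference of Abcg1 was 0.906 and that of Pltp 0.672. Pcolce2, read at only 3 to 101, was called with 4 of the 12 libraries left out (replicates 2 and 3 of either high-fat group), was not called with a pseudocount of 10 (1.302, limma adjusted p = 0.086) or with no filter (0.055), and gave 1.163 without both replicate 1 mice.

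Of 15 genes for regulators of these transcripts, 0 were called without the block and 13 were below 0 (median -0.14). With it, Hnf4a (-0.31), Ppargc1a (-0.41), Rora (-0.27) and Onecut1 (-0.25) were lower, with limma adjusted p of 0.043, 0.0085, 0.042 and 0.025. These 4 of 15 stand beside 3.68% of all genes called lower with the block. The list was chosen with earlier results of these data known, so the 2 shares are no test of it. With 1 mouse left out, Ppargc1a was called in each of 6 fits, Hnf4a and Onecut1 in 2 (without KO replicate 1 or 2) and Rora in 1 (without KO replicate 2). The difference of Onecut1 ranged from -0.73 to 0.24 when single libraries were left out without the block. Hnf4a, a nuclear receptor that controls many apolipoprotein genes, read 17250 ± 2160 in WT high-fat and 20550 ± 1750 in WT low-fat libraries (SD, n = 3). No gene of these lists was called between KO and WT.

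Markers of other liver cells moved with the fraction. Of 11 macrophage and Kupffer cell markers 9 were called higher in high-fat libraries, and so were 8 of 8 stellate cell and 8 of 8 endothelial markers, with median log2 differences of 2.23, 2.56 and 1.78. The summed macrophage markers were 514 to 1447 in low-fat libraries and 2290 to 2594 in 4 of the high-fat libraries. They were 12539 and 10820 in the high-fat libraries of WT replicate 1 and KO replicate 1. These mice had the largest differences of Tm6sf2, Apoa4, Apoa5 and Apoc2. Their log2 differences were also the most negative for Mttp (-0.37 and -0.41), Apoa1 (-0.23 and -0.36) and Apoa2 (-0.08 and -0.28). The same held for Apoc3 (-0.35 and -0.51) and Apoe (-0.08 and -0.31), so it was not particular to the 4 genes lower in all 6 mice. It did not hold for Apob (-0.30 and -0.10, with WT replicate 3 at -0.20). The endothelial sums of the high-fat libraries of WT replicate 1 and KO replicate 1 were also the highest, at 13167 and 8663. The stellate sums were 127 to 641 in low-fat and 1919 to 3406 in high-fat libraries, and the endothelial sums 986 to 2492 and 4222 to 13167. No marker of these 3 lists was at 0 in all libraries. The 6 hepatocyte markers were all below 0 (-0.22 to -0.12) and none was called. Neither were 2 bile duct markers, 1 T and B cell marker and 6 nuclear-retained RNAs without the block. With it, 1 bile duct marker and 1 nuclear-retained RNA were lower. The summed nuclear-retained RNAs were highest in the high-fat libraries of WT replicate 1 and KO replicate 1, at 176745 and 182030. They were 46924 to 130634 in the other high-fat libraries and 41236 to 147979 in low-fat libraries.

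Leaving out both of those mice gave log2 differences of -0.48 for Tm6sf2, -0.48 for Apoa4 and -0.22 for Apoc2. In limma the adjusted p values were then 0.0015, 0.00088 and 0.028 with the mouse as a block, and 0.07, 0.47 and 0.52 without it. The difference of Apoc2 moved by more than 1.5 times (from -0.38). Of 7 markers of periportal hepatocytes, those near the inflow of the lobule, 4 were called lower in high-fat cells, and all 7 differences were below 0 (median -0.58), with sums of 183299 to 222487 in low-fat and 138081 to 165067 in high-fat libraries. Of 8 pericentral markers 4 were called higher, and all 8 differences were above 0 (median 0.73), with Glul at 0.37 (limma adjusted p = 0.43), and with sums of 55162 to 101694 and 96491 to 134607. Over all genes, 0.767% were called lower and 4.97% higher. The part of other cell types, of nuclear-retained RNA and of lobule position in the differences of the 10 genes was not tested. Nor was it tested for the genes of the other lists, among them Gpihbp1, Lpl, Abcg1, Pltp and Pcolce2.

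**Figure D5:**
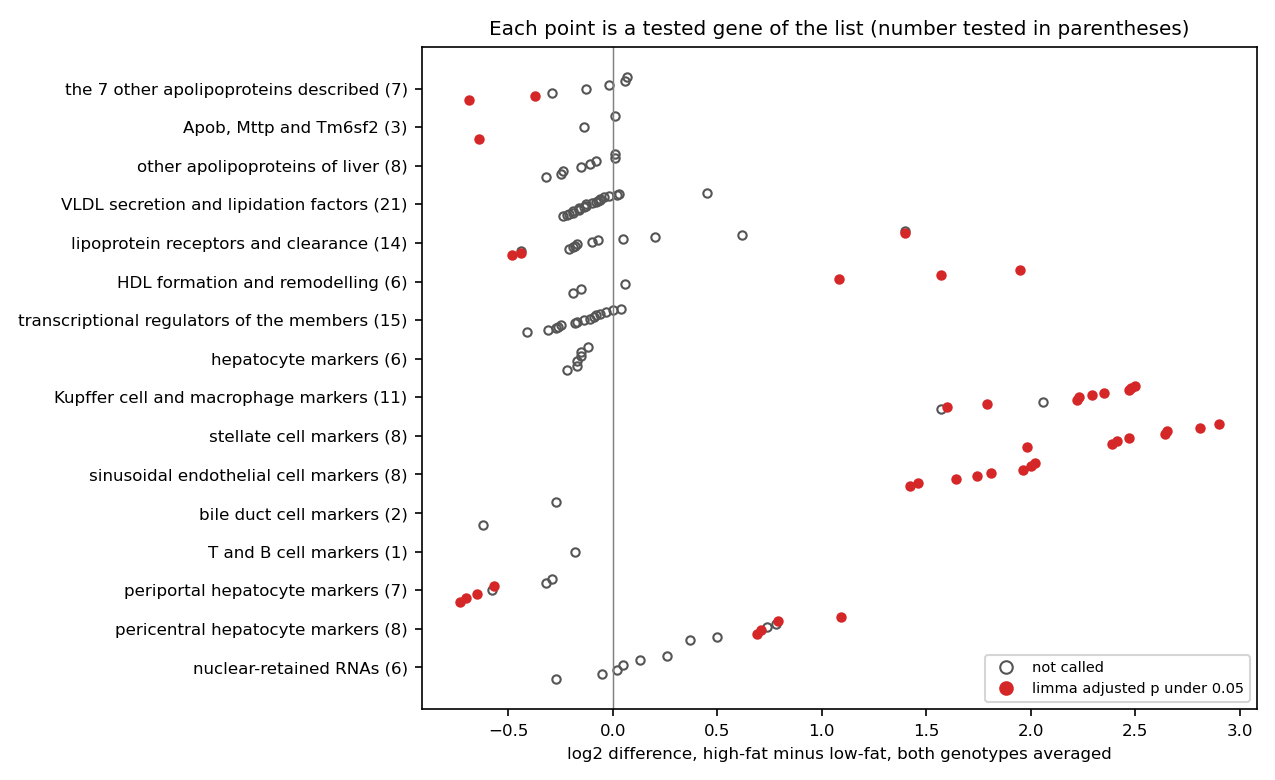
Log2 difference, high-fat minus low-fat with both genotypes averaged, for each tested gene of the lists; filled red points were called (limma adjusted p under 0.05) and open points were not. The 10 genes lie between -0.69 and 0.07, and markers of macrophages, stellate and endothelial cells between 1.42 and 2.90.

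Across the 12 libraries the 10 genes did not vary as 1 block. Described by Pearson's r of their log2 levels over 12 libraries, which share 6 mice and 1 scaling, Apoa4 and Apoc2 were most alike (0.96), followed by Apoa2 and Apoe (0.918). Apoa4 and Apoe were least alike (0.0921). After removing the mean of each group, the order differed: Apoa2 and Apoc3 were most alike (0.97) and Apoa4 and Apoa5 least (0.0948), while Apoa4 and Apoc2 stood at 0.92 and Apoa4 and Apoe at 0.465. The same measure over 10517 genes was used to name genes with a pattern close to that of each of the 10. For Tm6sf2 these were Gprc5c (0.963) and Sema4a (0.96), and Apoc2 was like Parva (0.971) and Apob like Lnpep (0.971). For Mttp they were Sardh (0.959) and C8g (0.958), and for Apoa1 Rbp4 (0.906) and Rpl38 (0.874).

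For Apoa4 and Apoa5 the most similar rows were the overlapping gene models named above, Gm10680 at 0.999 and Gm47544 at 0.998 (listed in the deposited table as AC164105.4). Apoa5 was next most like Hsd11b1 (0.966). Apoa2 was most like Apoc1 (0.971) and Rpph1 (0.927), Apoe like Rpph1 (0.927) and Apoa2 (0.918), and Apoc3 like AC142113.1 (0.932) and Ttc36 (0.93). Between mice the widest spread of mean log2 levels after that of Apob was in Apoa5 (0.79) and Tm6sf2 (0.75), and the narrowest in Apoe (0.20).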

How the data were processed

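PolyA RNA of 12 hepatocyte libraries was measured. The deposited values are a score: the authors scaled gene reads of each library to 20 M and rounded up, as read from the values (each column sums to 20.01 M), and depth was estimated from that rounding. mm9 is named per the submitters' processing notes; aligner, counter, annotation and strandedness are not given in the sources used here. Of 52636 identifiers, 52489 matched GENCODE M21 (GRCm38), from which lengths, positions and overlaps were taken.

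Values were rescaled by TMM and taken as log2(value + 2), on which scale changes of low genes are understated. The 16563 genes that reached 10 reads per 20 M in 3 or more libraries were tested. limma 3.58.1 (R 4.3.3) fitted 4 group means over all 12 libraries, with an intensity trend and two-sided p-values adjusted by Benjamini-Hochberg. Tables were made with Python 3.11.15 and pandas 2.3.3. The scripts were tested on simulated data. Replicates are different mice per the labels.

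Low-fat and high-fat libraries of 1 mouse share its name in the labels, which pairs them; deviations of paired libraries correlated at 0.471 to 0.58 in WT and -0.0111 to 0.46 in KO. A second fit took the mouse as a block between the fractions and for the interaction. Between genotypes it took the replicate number, which joins different mice. Named are the 10 genes, any list gene called with or without the block, the 2 most similar genes (mean of at least 100) of each, and Ptprk. Some genes that this rule names are not reported here. The 10 genes and lists were chosen with earlier results of these data known. Alternatives were other scalings, pseudocounts of 0.5 and 10, no filter, only the libraries compared, the block and leaving out libraries. Leaving out mice was added after seeing the data.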

Additional observations from a re-analysis of the deposited data

How the results depend on the processing

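Of 960 log2 differences of the 10 genes recomputed under other settings, 123 changed sign. None of these was called in either fit (smallest limma adjusted p 0.37), and the largest had a size of 0.269. Tm6sf2, Apoa4 and Apoc2 stayed negative between the fractions under each setting run, while their calls depended on single libraries and mice as given in the results. The median of all genes moved by less than 0.1 between scalings. Groups of 3 mice limit what could be called. All 10 genes lay far above the level of 3 reads, the lowest value being 389 for Tm6sf2 in WT high-fat cells. Depth as a limit was not tested. The cause of the changes below was not tested, except that leaving out libraries leaves fewer samples.

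With the median of ratios scaling, Apob in WT was 0.001 and Apoa1 0.012 between the fractions, and Apoa1 was 0.003 over both genotypes. With the deposited scaling alone, Mttp between genotypes in high-fat cells was -0.01. Between the fractions Apob was then 0.063 in WT, Apoa1 0.074 in WT, 0.045 in KO and 0.059 over both, and 102 genes were called in KO. A pseudocount of 10 called 1 gene in WT, and no filter called 107 in KO. Only the libraries compared (run for 4 comparisons, the others using all 12 already) called 0 genes between genotypes in high-fat cells and 0 between the fractions in KO.

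The replicate block called 2 genes between genotypes in high-fat cells, where same-numbered mice share only a number and same-numbered libraries correlated at -0.174 to 0.491 (0.252 to 0.397 in low-fat cells). It called 195 genes and 1 of the 10 in WT, 379 genes in KO and 1729 over both genotypes, and it changed no other call of the 10. Over both genotypes the block without WT replicate 1 called 620 genes and 1 of the 10, with Apoa1 at 0.026. Without WT replicate 2 it gave Apob -0.101 and Apoe 0.0. Without KO replicate 1 it called 1691 genes, with Apoa1 at 0.061, and without KO replicate 2 it called 2951 genes, with Apob at -0.032. Without KO replicate 3 it gave Apoa2 -0.014 and Apoe -0.009. Without both replicate 1 mice Apoa1 was 0.128 and Apoc3 0.032 with or without the block, and without the block 357 genes and 0 of the 10 were called. The settings that leave out mice were chosen after seeing the data.

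Leaving out 1 library at a time gave these lowest and highest values of the log2 difference or count. Between KO and WT in low-fat cells the ranges were Apoa1 0.004 to 0.181, Apob -0.097 to 0.347, Tm6sf2 -0.058 to 0.126, Apoa4 -0.279 to 0.121, Apoc3 -0.032 to 0.094, Apoe -0.051 to 0.096, Apoa5 -0.095 to 0.166, Apoc2 -0.098 to 0.102 and Mttp -0.177 to 0.047. Between KO and WT in high-fat cells the ranges were Tm6sf2 0.05 to 0.458, Apob -0.153 to 0.329, Mttp -0.049 to 0.043, Apoa2 -0.055 to 0.203, Apoc3 -0.094 to 0.185, Apoc2 -0.019 to 0.122, Apoe -0.149 to 0.071, Apoa4 -0.196 to 0.114, the number of genes called 0 to 1, Apoa5 -0.06 to 0.433 and Apoa1 -0.012 to 0.18. Between the fractions in WT the ranges were Apoa1 -0.124 to 0.06, Apob -0.209 to 0.269, Apoc3 -0.202 to 0.007 and the number of genes called 0 to 1. Between the fractions in KO the ranges were the number of genes called 0 to 75, Apob -0.115 to 0.269, Mttp -0.207 to 0.018, Apoa1 -0.141 to 0.077, Apoa5 -0.426 to 0.094, Apoc3 -0.273 to 0.032, Apoa2 -0.073 to 0.211 and Apoe -0.074 to 0.172. Between the fractions over both genotypes the ranges were the number called of the 10 genes 0 to 3, Apoa5 -0.387 to -0.114, Apoc3 -0.212 to -0.046, Mttp -0.195 to -0.077, Apob -0.085 to 0.154, Apoa1 -0.08 to 0.043, Onecut1 -0.732 to 0.237, the number of genes called 606 to 1125 and Apoa2 -0.011 to 0.144. For the interaction the ranges were Apoa4 -0.147 to 0.246, Apoc2 -0.043 to 0.148, Apoa1 -0.123 to 0.104, Apoe -0.162 to 0.056, Apob -0.229 to 0.271, Apoa2 -0.123 to 0.133, Apoc3 -0.122 to 0.156, Tm6sf2 -0.01 to 0.399, Apoa5 -0.078 to 0.415 and Mttp -0.024 to 0.189.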
